A study of Mus musculus with 11 samples.

Results

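The genes described here are the mouse histone genes of an RNA-seq table with 23071 gene identifiers, taken by symbol: those that begin with Hist1h, Hist2h, Hist3h or Hist4h, and those that begin with H2af, H3f3 or H1f. The symbols matched 84 identifiers, of which 1 with a pseudogene suffix was left out and 10 were listed at 0 in every library. The remaining 73, of 17380 identifiers above 0 in at least 1 library, fell into 60 cluster histone genes and 13 variant histone genes. The cluster genes were 6 for the linker histone H1 and 15, 16, 10 and 13 for the core histones H2A, H2B, H3 and H4, in that order. The variant genes were 3 for H1, 8 for H2A and 2 for H3. At the edge of the rule stood Hist1h2ao and Hist1h2ba, each with 1 read in 1 library, just inside it, and the 10 symbols with no read just outside it.

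Histones package DNA into nucleosomes, and each S phase needs a new set of them for the copied DNA. The cluster genes, also called replication-dependent, supply that set: they lie side by side in the genome, have no or few introns, and their mRNAs end in a short stem-loop, held by the stem-loop binding protein Slbp, in place of a poly(A) tail. The variant genes stand alone, mostly have introns and poly(A) tails, are transcribed through the whole cell cycle, and give histones that replace the canonical ones at particular places. Some cluster genes can also give a longer, polyadenylated mRNA that runs past the stem-loop, a form known from cells that leave the cell cycle. How RNA was selected before sequencing (by poly(A) tail or by removal of ribosomal RNA) is not given in the sources used here.

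The series held 11 libraries of C57BL/6 mice in 3 groups. The leukemia libraries (n = 5) came from leukemic B cells of lymph nodes of Pax5+/- x Ebf1+/- mice, 1 mouse each, as flash-frozen cell suspensions. The Ebf1+/- libraries (n = 3) came from progenitor B cells purified on columns from bone marrow pooled from 3, 6 and 7 mice. The wild-type libraries (n = 3) came from progenitor B cells purified the same way from 3, 7 and 6 mice. Pax5 and Ebf1 are transcription factors of early B cells, and the leukemias carry 1 intact copy of each by genotype. Genotype, disease, tissue, purification and pooling change together between leukemias and the progenitor groups and cannot be told apart. The Ebf1+/- libraries were also listed with other alignment tools than the rest. In these bulk samples, fewer cells of a type and less RNA per cell cannot be told apart.

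Library totals, recovered from the table, were 8.51 to 15.3 in units of 1e6 reads, with leukemia replicate 1 the smallest. Pax5 averaged 119 ± 38.3 FPKM in leukemias, 179 ± 83.5 FPKM in Ebf1+/- cells and 222 ± 77.9 FPKM in wild-type cells (SD, n = 5, 3 and 3), where FPKM counts fragments per kilobase of the gene's length and per library depth. Ebf1 averaged 66.6 ± 10.8 FPKM in leukemias, 71.2 ± 24.1 FPKM in Ebf1+/- cells and 99.1 ± 14.3 FPKM in wild-type cells. Both were lower in leukemias than in wild-type cells (exact permutation test, two-sided, p = 0.0179 each, the smallest p this design can give). For Ebf1+/- against wild-type cells the exact permutation p was 0.3 for Ebf1, where 0.1 is the smallest possible. The 9 B lineage markers summed to between 3298 and 3927 FPKM in leukemias, 1563 and 4889 FPKM in Ebf1+/- cells and 2339 and 4166 FPKM in wild-type cells. The sums hide single markers that moved in opposite directions, named after their values were seen. By the limma test described below, Vpreb1 and Igll1 were higher in leukemias than in wild-type cells (22.2%, against 20.7% of all genes). Cd79b, Pax5 and Ebf1 were lower (33.3%, against 24.1%). The call of Pax5 was lost under 5 of 16 alternatives (limma adjusted p from 0.0221 to 0.138). Among them were leaving out leukemia replicate 4 or wild-type replicate 1. The Ebf1 call was lost under 3 of 16 (0.00729 to 0.0631), among them leaving out wild-type replicate 1 or 2. None of the 9 was called against Ebf1+/- cells (0%, against 21.6% of all genes). The nearest was Vpreb1, with a log2 fold change of 1.02 ± 0.33 (limma, adjusted p = 0.0567). The progenitor libraries also held other cells: 13 granulocyte markers summed to at most 9.5 FPKM in any leukemia, against 2724 to 10696 FPKM in Ebf1+/- and 627 to 3427 FPKM in wild-type libraries, and 8 megakaryocyte markers to at most 2.31 FPKM in any leukemia, against 150 to 4388 FPKM in Ebf1+/- and 87.2 to 497 FPKM in wild-type libraries.

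The split into cluster and variant genes was visible in the genome sequence just after the stop codon, which the symbol rule did not use. The histone stem-loop consensus, 16 bases of which 9 were held to the consensus letter and the rest left free, was searched on the gene's strand within 150 genomic bases after the stop codon. It was found in 58 of 60 cluster genes, 22 to 59 bases after the stop (median 31.5). It was not found in that window for Hist1h2an and Hist2h2be. Of the 12 variant genes with a position, 1 held it, H2afx, and of all 21727 protein-coding genes 88 did (0.405%). The 6 windows printed show the copies of the cluster genes on which the results turn, an H4 gene and the single variant gene, with the stem-loop in capitals and 5 bases on each side (5′ to 3′ on the gene's strand, RefSeq genome GRCm38.p6).
Hist1h1c, chr13:23739507-23739532 (+): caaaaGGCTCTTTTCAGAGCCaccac
Hist3h2a, chr11:58955167-58955192 (+): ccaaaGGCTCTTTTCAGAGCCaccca
Hist3h2ba, chr11:58949344-58949369 (+): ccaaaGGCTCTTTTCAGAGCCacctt
Hist1h2bc, chr13:23684642-23684667 (+): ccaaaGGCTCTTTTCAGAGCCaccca
Hist1h4i, chr13:22040961-22040986 (-): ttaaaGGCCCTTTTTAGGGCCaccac
H2afx, chr9:44335235-44335260 (+): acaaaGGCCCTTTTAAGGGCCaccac
The stem of the H1, H2A and H2B copies is closed by GGCTCT paired with AGAGCC, and the H4 and H2afx copies shown by GGCCCT paired with AGGGCC. Over all members, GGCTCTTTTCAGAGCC was the most frequent form, in 34 genes of H1, H2A, H2B and H3 and in no H4 gene, and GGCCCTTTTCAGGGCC was found in 8 genes, all of them H4.

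The gene length behind each FPKM value is not given. It was inferred as the shortest length that makes the reads of a gene whole in every library. For 37 of the 58 cluster genes with a stem-loop, this length matched the distance from the annotated start to the end of such a window within 25 bases. For Hist1h1c it was 725 bases, exactly the distance from the annotated start to the end of the window, and for Hist3h2a 508 bases, again exactly. Annotated transcripts of GENCODE M21 run on past the stem-loop by 840 bases in Hist1h1c, 1643 bases in Hist3h2a, 169 bases in Hist3h2ba and 2010 bases in Hist1h2ac. If counting began at the annotated start, reads on such extensions were outside the counted length of Hist1h1c and Hist3h2a. The counted region itself is not known.

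Of the cluster genes, 50 lie on chromosome 13 (the Hist1h group), 7 on chromosome 3 (Hist2h), 2 on chromosome 11 (Hist3h) and 1 on chromosome 6 (Hist4h). Cluster genes of H2A and H2B often sit back to back and share the DNA between them. The interval between Hist1h2ac (minus strand, chr13:23681467-23683948) and Hist1h2bc (plus strand, chr13:23684199-23692908) is shown because both genes were lower in leukemias. It is 250 bases long, chr13:23683949-23684198 (RefSeq genome GRCm38.p6, plus strand), with the octamer ATTTGCAT, the TATA element TATAAA and the CCAAT box in capitals on whichever strand they lie.
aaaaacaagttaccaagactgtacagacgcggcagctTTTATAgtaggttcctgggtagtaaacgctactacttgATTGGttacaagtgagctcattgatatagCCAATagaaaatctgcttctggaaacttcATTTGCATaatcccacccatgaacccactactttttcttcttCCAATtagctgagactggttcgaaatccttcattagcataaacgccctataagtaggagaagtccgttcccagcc
The octamer, which binds Oct factors such as Pou2f1 and is known from H2B promoters, begins at base 134 of the interval. The TATA element, read on the minus strand, begins at base 38, and CCAAT boxes begin at bases 76, 105 and 176.

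Across RefSeq promoters (250 bases before to 50 bases after the start, both strands), the octamer was found in 6 of 15 cluster H2A genes and 7 of 14 cluster H2B genes, in no cluster H1, H3 or H4 gene, and in 1.74% of all 32851 promoters. TATAAA was found in 33 of 55 cluster genes with a promoter, 1 of 11 variant genes and 13.6% of all promoters. CCAAT was found in every cluster promoter of H1, H2A, H2B and H3, in 3 of 12 of H4 and in 37.4% of all. The E2F-type sequence TTTCGCGC was found in 5 of 15 H2A and 4 of 14 H2B cluster genes, against 0.323% of all. The variant promoter with an octamer was that of H3f3b. A match is a description of these letters, not evidence of binding.

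By FPKM, most histone mRNA counted in the table was variant mRNA. How RNA was selected is not known, and it bears on mRNAs without a poly(A) tail. The median share of coding 50-base stretches found in no other gene was 27.2% for cluster and 87.9% for variant genes. Reads of cluster genes could thus be lost or shared, and the share of variant mRNA in the cells is not known. The 13 variant genes summed to 3036, 2871, 3042, 3051 and 2897 FPKM in the 5 leukemias, 4817, 3477 and 2677 FPKM in the 3 Ebf1+/- libraries and 4103, 3730 and 3033 FPKM in the 3 wild-type libraries. The 60 cluster genes summed to 103, 173, 176, 160 and 164 FPKM in leukemias, 443, 243 and 406 FPKM in Ebf1+/- cells and 435, 277 and 233 FPKM in wild-type cells. Every leukemia lay below every progenitor library in the cluster sum, while the variant sums of the leukemias lay within the range of the Ebf1+/- libraries. The ratio of the cluster sum to the variant sum was 0.0522 ± 0.0106 in leukemias, 0.104 ± 0.0422 in Ebf1+/- cells and 0.0857 ± 0.0177 in wild-type cells (SD, n = 5, 3 and 3). These sums are descriptions of the chosen members and were given no test.

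**Figure D1:**
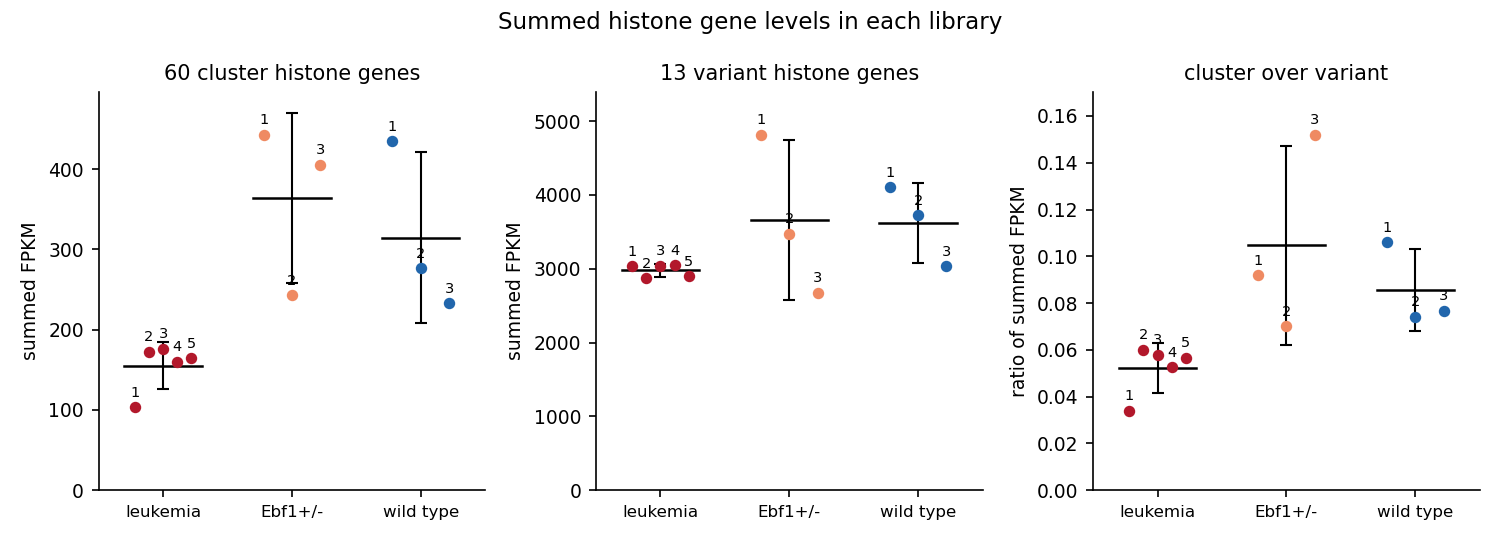
Summed FPKM of the 60 cluster genes, of the 13 variant genes and the ratio of these sums (vertical axes), by group (horizontal axis). Points are libraries with their replicate number, lines are means and bars are 1 SD. The 5 leukemias sit at 103 to 176 FPKM for cluster genes, below the 233 to 443 FPKM of the 6 progenitor libraries.

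By histone type, the cluster H1 genes summed to 17.4 ± 6.59 FPKM in leukemias, 97.6 ± 63.3 FPKM in Ebf1+/- cells and 66.3 ± 29.8 FPKM in wild-type cells. The H2A genes summed to 36.7 ± 6.22 FPKM in leukemias, 71.8 ± 13.5 FPKM in Ebf1+/- cells and 79.2 ± 28.1 FPKM in wild-type cells. The H2B genes summed to 38.8 ± 6.71 FPKM in leukemias, 101.7 ± 31.8 FPKM in Ebf1+/- cells and 90 ± 22.8 FPKM in wild-type cells. The sums of H3 and H4 lay closer together. H3 genes summed to 16.5 ± 4.95 FPKM in leukemias, 24.5 ± 16.4 FPKM in Ebf1+/- cells and 22 ± 6.08 FPKM in wild-type cells. H4 genes summed to 45.9 ± 9.08 FPKM in leukemias, 68.5 ± 28.0 FPKM in Ebf1+/- cells and 57.4 ± 19.8 FPKM in wild-type cells. A few genes carried much of each sum: Hist1h1c, Hist3h2a, Hist1h4i, Hist1h2bc, Hist3h2ba and Hist2h2be held 28.5% to 48.1% of the cluster sum in leukemias, 40.5% to 75.6% in Ebf1+/- cells and 56.3% to 63.3% in wild-type cells. The other 54 cluster genes summed to 96.9 ± 27.2 FPKM in leukemias, 156 ± 93.2 FPKM in Ebf1+/- cells and 130 ± 54.0 FPKM in wild-type cells, and their ranges overlapped.

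Leukemias were first set against wild-type cells. Each test used limma on log2(FPKM + 1) over every gene that averaged 1 FPKM or more in the 2 groups, called at an adjusted p under 0.05, and fold changes on that scale understate the change of low genes. Of all 10968 genes tested, 44.8% were called, 20.7% higher and 24.1% lower in leukemias, so a call was common. Among the variant genes, 9 of 13 were tested: 1 was higher (H2afy), 6 were lower (H1f0, H1fx, H2afv, H2afx, H3f3a and H3f3b) and 2 were not called (H2afj and H2afz). Among the cluster genes, 44 of 60 were tested: none was higher and 10 were lower (22.7%, against 24.1% of all genes), and 39 of the 44 had a negative fold change. The groups did not overlap for the 10 cluster genes called lower, for 4 of the 6 variant genes called lower and for H2afy; of all genes, 25.1% lay lower and 21.2% higher without overlap. The median log2 fold change was -0.81 for the variant genes tested, -0.40 for the cluster genes tested and -0.04 for all genes tested.

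H2afy, which encodes macroH2A1, a large H2A variant with an added macro domain, stood at 980, 697, 743, 966 and 832 FPKM in leukemias, 535, 518 and 423 FPKM in Ebf1+/- cells and 387, 412 and 338 FPKM in wild-type cells. All 5 leukemias lay above all 6 progenitor libraries. Its log2 fold change was 1.14 ± 0.14 (SE) for leukemias against wild-type cells (limma, adjusted p = 0.000332) and 0.77 ± 0.16 against Ebf1+/- cells (adjusted p = 0.0104). H2afy2, for macroH2A2, did not pass the filter: it had 1 read in 1 of the 5 leukemias (0.0365 FPKM), against 0.514 to 0.749 FPKM in Ebf1+/- cells and 0.283 to 0.618 FPKM in wild-type cells.

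H2afx, which encodes H2A.X, the variant phosphorylated at DNA breaks, and whose mRNA can end at the stem-loop printed above or in a poly(A) tail, moved the other way. It stood at 154, 175, 211, 250.1 and 216 FPKM in leukemias, 593, 453 and 290.2 FPKM in Ebf1+/- cells and 558, 546 and 426 FPKM in wild-type cells. No leukemia reached the lowest progenitor library. The log2 fold change was -1.35 ± 0.17 against wild-type cells (limma, adjusted p = 0.000359) and -1.10 ± 0.24 against Ebf1+/- cells (adjusted p = 0.0124).

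The H2A.Z genes, whose product marks promoters, gave values closer together. H2afv, for H2A.Z.2, averaged 104 ± 16.6 FPKM in leukemias, 169 ± 71.5 FPKM in Ebf1+/- cells and 198 ± 47.3 FPKM in wild-type cells, and was lower than in wild-type cells by -0.91 ± 0.18 log2 (limma, adjusted p = 0.00314). The difference from Ebf1+/- cells, -0.63 ± 0.25, was not called (adjusted p = 0.11), except without Ebf1+/- replicate 3 (0.021, with 0.021 to 0.292 over its alternatives). H2afz, for H2A.Z.1, averaged 486 ± 45.5 FPKM in leukemias, 610.5 ± 107 FPKM in Ebf1+/- cells and 594 ± 68.5 FPKM in wild-type cells, a log2 difference from wild-type cells of -0.29 ± 0.11 that was not called (adjusted p = 0.0682). It was called lower after quantile scaling and without leukemia replicate 2 (adjusted p = 0.0012 and 0.0442, with 0.0012 to 0.248 over its 16 alternatives). H2afj, for H2A.J, averaged 41.9 ± 2.75 FPKM in leukemias, 44.2 ± 11 FPKM in Ebf1+/- cells and 36.5 ± 1.98 FPKM in wild-type cells, with a log2 difference from wild-type cells of 0.19 ± 0.09 that was not called (adjusted p = 0.0962).

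Both genes for H3.3, the H3 variant laid down outside replication, were lower in leukemias than in wild-type cells, by unequal amounts. H3f3b stood at 266, 318, 292, 316 and 308 FPKM in leukemias, 698, 479 and 426 FPKM in Ebf1+/- cells and 648, 528 and 424 FPKM in wild-type cells, with no overlap (log2 fold change -0.81 ± 0.14 against wild-type cells, limma adjusted p = 0.00174, and -0.80 ± 0.17 against Ebf1+/- cells, adjusted p = 0.0106). H3f3a, among the most abundant members, stood at 1021, 992, 1100, 877 and 937 FPKM in leukemias, 1913, 1152 and 848 FPKM in Ebf1+/- cells and 1598, 1292 and 1091 FPKM in wild-type cells. Its groups overlapped, its log2 fold change against wild-type cells was -0.42 ± 0.14 (adjusted p = 0.0372), and the call was lost under 9 of 16 alternatives, among them leaving out leukemia replicate 2, 4 or 5 or wild-type replicate 1 or 2 (adjusted p from 0.000186 to 0.186). Of the coding 50-base stretches of H3f3a only 7.24%, and of H2afz 0%, occur in no other annotated gene, so their reads could be shared with copies.

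The variant linker histone genes were low in leukemias. H1fx, for H1.10, stood at 1.33, 0.288, 2.20, 0.582 and 2.5 FPKM in leukemias, 17.1, 15.8 and 10 FPKM in Ebf1+/- cells and 16.6, 16.5 and 12.3 FPKM in wild-type cells, with a wide gap between leukemias and the rest. Its log2 fold change was -2.86 ± 0.33 against wild-type cells (limma, adjusted p = 0.000242) and -2.76 ± 0.36 against Ebf1+/- cells (adjusted p = 0.00118). H1f0, for H1.0, known from cells that have stopped dividing, averaged 15.5 ± 6.70 FPKM in leukemias, 42.0 ± 6.87 FPKM in Ebf1+/- cells and 29.8 ± 6.54 FPKM in wild-type cells. It was called lower than in both (log2 fold change -0.99 ± 0.34, adjusted p = 0.0404, and -1.48 ± 0.34, adjusted p = 0.015). The first call was lost under 8 of 16 alternatives, among them leaving out leukemia replicate 3 or 4 or any 1 wild-type replicate (adjusted p from 0.0171 to 0.141), and the second was lost without Ebf1+/- replicate 2 and under the replicate block (adjusted p from 0.00664 to 0.0528 over its alternatives).

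**Figure D2:**
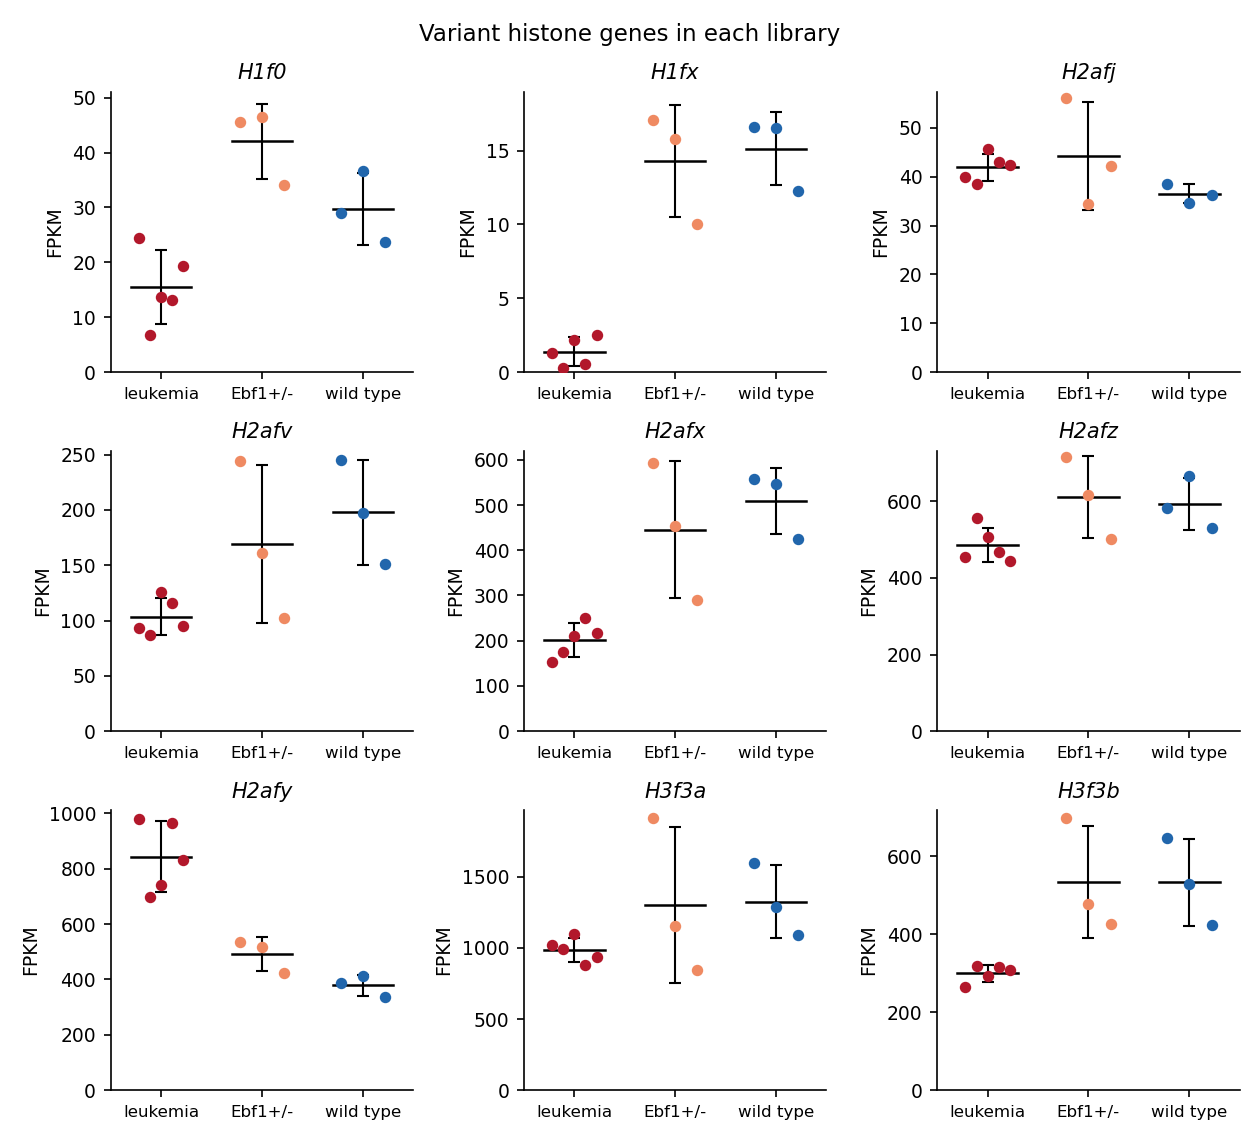
FPKM (vertical axes, linear, from 0) of the 9 variant histone genes tested, by group (horizontal axis). Points are libraries, lines are means and bars are 1 SD. H2afy is the gene whose leukemia points, 697 to 980 FPKM, lie above all the others, and H1fx has leukemia points of at most 2.5 FPKM.

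Among the 10 cluster genes called lower than in wild-type cells were 4 with wild-type means of 16.6 to 54.3 FPKM (Hist3h2a, Hist1h1c, Hist3h2ba and Hist1h2bc), while the others averaged 2.23 to 9.36 FPKM there. Hist1h1c, for the linker histone H1.2 (chr13:23738808-23740367, plus strand), stood at 3.73, 4.32, 6.34, 3.31 and 7.32 FPKM in leukemias, 34.4, 29.9 and 157.7 FPKM in Ebf1+/- cells and 64.8, 34.8 and 34.4 FPKM in wild-type cells. The highest leukemia had less than the lowest progenitor library, and 1 Ebf1+/- library stood far above the other two. The log2 fold change was -2.91 ± 0.28 against wild-type cells (limma, adjusted p = 9.72e-05) and -3.26 ± 0.50 against Ebf1+/- cells (adjusted p = 0.00257). The other main H1 genes did not pass: Hist1h1b averaged 3.65 ± 1.68 FPKM in leukemias, 7.22 ± 6.42 FPKM in Ebf1+/- cells and 6.32 ± 3.77 FPKM in wild-type cells. Hist1h1e averaged 2.37 ± 0.951 FPKM in leukemias, 6.33 ± 4.64 FPKM in Ebf1+/- cells and 5.59 ± 3.67 FPKM in wild-type cells. Hist1h1e was called lower than in wild-type cells without wild-type replicate 3 (adjusted p = 0.0452, with 0.0452 to 0.276 over its alternatives).

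The pair on chromosome 11, which carry the most frequent stem-loop form, found in 34 members, were both low in leukemias. Hist3h2a, an H2A gene (chr11:58954685-58956830), stood at 14.6, 3.76, 13.3, 20.4 and 13.2 FPKM in leukemias, 47.3, 36.0 and 44.3 FPKM in Ebf1+/- cells and 77.7, 43.0 and 42.1 FPKM in wild-type cells (log2 fold change -2.07 ± 0.44 against wild-type cells, limma adjusted p = 0.00508, and -1.77 ± 0.41 against Ebf1+/- cells, adjusted p = 0.0167). Hist3h2ba, an H2B gene (chr11:58948920-58949533), stood at 2.29, 0, 3.66, 5.52 and 4.68 FPKM in leukemias, 23.0, 20.3 and 13.6 FPKM in Ebf1+/- cells and 39.4, 27.4 and 19.9 FPKM in wild-type cells (-3.02 ± 0.56 against wild-type cells, adjusted p = 0.00262, and -2.46 ± 0.55 against Ebf1+/- cells, adjusted p = 0.0143). Leukemia replicate 2 was the lowest library for both. Against Ebf1+/- cells, the call of Hist3h2a was lost without Ebf1+/- replicate 3 (adjusted p = 0.051, with 0.00259 to 0.051 over its alternatives) and that of Hist3h2ba with a pseudocount of 0.1 (adjusted p = 0.0774, with 0.00352 to 0.0774 over its alternatives). None of the coding 50-base stretches of Hist3h2a is found in that gene alone, so its value is uncertain.

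Hist1h2bc, the H2B gene of the interval printed above, stood at 6.38, 5.92, 5.62, 5.69 and 7.21 FPKM in leukemias, 23.5, 16.2 and 54.5 FPKM in Ebf1+/- cells and 16.4, 16.1 and 17.3 FPKM in wild-type cells. Leukemias and wild-type libraries each kept within a narrow range, far apart from each other. Its log2 fold change was -1.30 ± 0.10 against wild-type cells (limma, adjusted p = 4.63e-05) and -2.0 ± 0.32 against Ebf1+/- cells (adjusted p = 0.0031). Its neighbour Hist1h2ac, chosen here after its values were seen, averaged 0.70 ± 0.42 FPKM in leukemias, 3.37 ± 2.62 FPKM in Ebf1+/- cells and 2.23 ± 0.822 FPKM in wild-type cells and was called lower than in both (log2 fold change -0.93 ± 0.26, adjusted p = 0.019, against wild-type cells and -1.24 ± 0.37, adjusted p = 0.0444, against Ebf1+/- cells). Its call against wild-type cells was lost under 4 of 15 alternatives: without wild-type replicate 1, after quantile scaling, with all groups in 1 fit and under the replicate block (adjusted p from 0.015 to 0.123). Its call against Ebf1+/- cells was lost under 12 of 15 alternatives, among them leaving out any 1 leukemia or Ebf1+/- replicate 1 or 3 (0.0244 to 0.161).

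Hist2h2be, the H2B gene on chromosome 3 in which no stem-loop was found, averaged 5.44 ± 0.958 FPKM in leukemias, 8.64 ± 3.16 FPKM in Ebf1+/- cells and 9.36 ± 1.31 FPKM in wild-type cells, and was called lower than in wild-type cells (log2 fold change -0.69 ± 0.15, limma adjusted p = 0.00554). Against Ebf1+/- cells the difference of -0.54 ± 0.23 was not called (adjusted p = 0.121), except without Ebf1+/- replicate 3 (0.0299, with 0.0299 to 0.31 over its alternatives). Hist1h3g, an H3 gene, averaged 1.57 ± 0.693 FPKM in leukemias, 3.69 ± 3.26 FPKM in Ebf1+/- cells and 3.47 ± 0.662 FPKM in wild-type cells, lower than in wild-type cells by -0.84 ± 0.26 log2 (adjusted p = 0.0283), a call that was lost under 6 of 15 alternatives: without wild-type replicate 1 or 2, after quantile scaling, with all groups in 1 fit, under the replicate block and by voom (0.0199 to 0.102). The remaining genes called lower than in wild-type cells, named after their values were seen, were Hist1h2bh, Hist2h3b and Hist2h4, with leukemia means of 0.744 to 1.68 FPKM and wild-type means of 3.02 to 3.25 FPKM. The call of Hist1h2bh was lost under 8 of 15 alternatives: the 4 just named other than leaving out a library, and without leukemia replicate 1 or 2 or wild-type replicate 1 or 2 (0.0244 to 0.103).

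**Figure D3:**
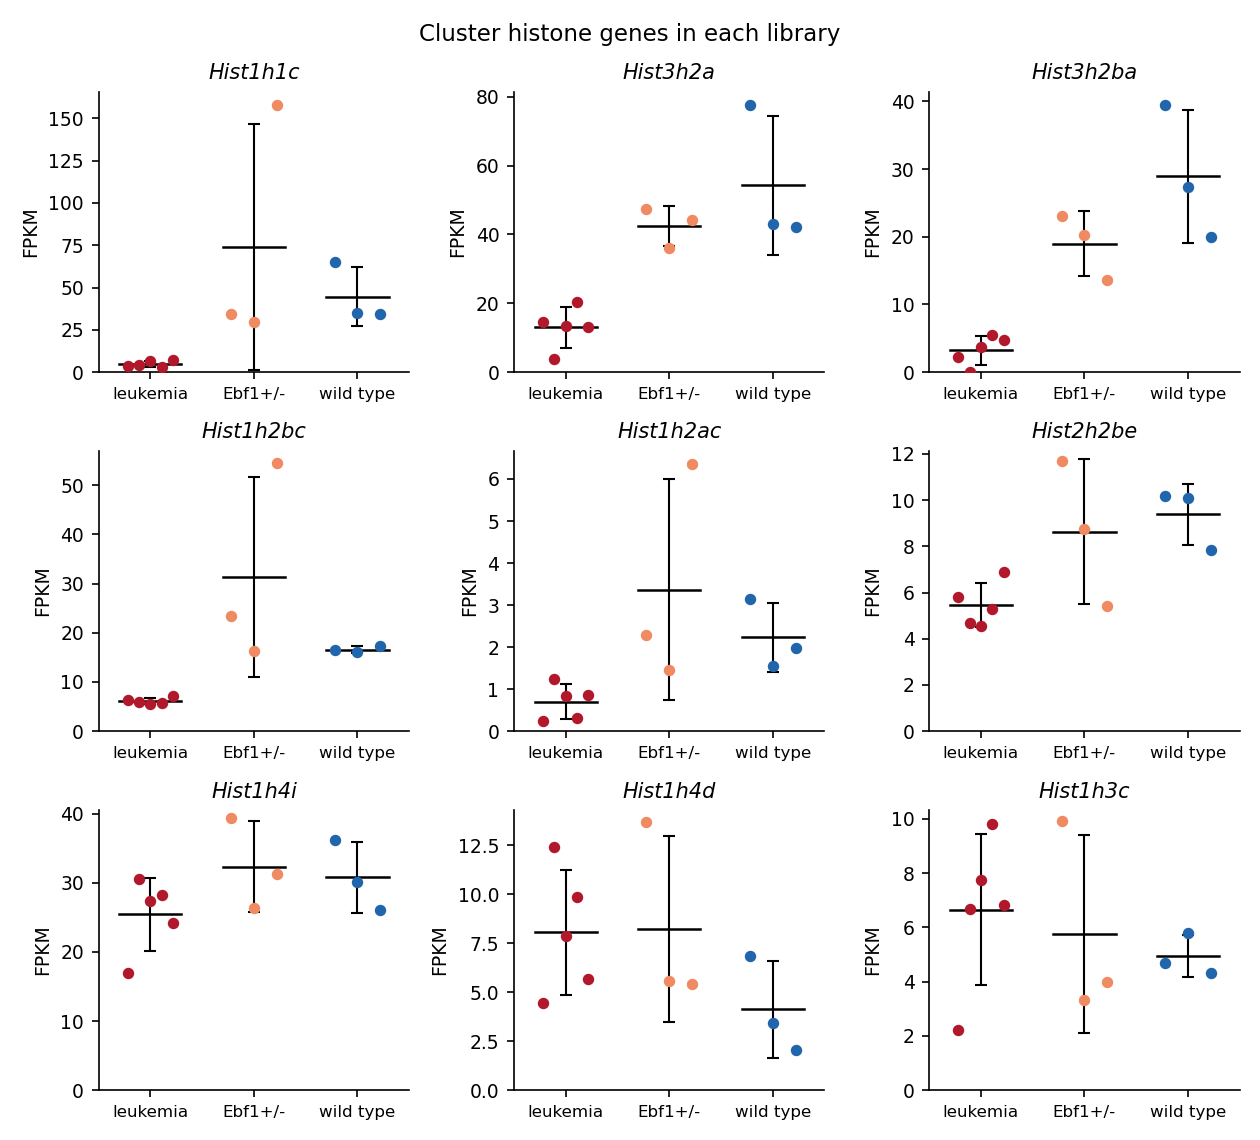
FPKM (vertical axes, linear, from 0) of 9 cluster histone genes, by group (horizontal axis). Points are libraries, lines are means and bars are 1 SD. For Hist1h1c, Hist3h2a, Hist3h2ba and Hist1h2bc every leukemia lies below every progenitor library, and the high Ebf1+/- point of Hist1h1c, Hist1h2bc and Hist1h2ac is the same library, replicate 3.

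The H4 genes Hist1h4i and Hist1h4d and the most abundant H3 cluster gene, Hist1h3c, did not pass the test in either leukemia comparison. Hist1h3g, next in abundance among the H3 genes, was called lower than in wild-type cells, as given above. Hist1h4i stood at 16.9, 30.5, 27.4, 28.2 and 24.2 FPKM in leukemias, 39.4, 26.3 and 31.3 FPKM in Ebf1+/- cells and 36.2, 30.1 and 26.0 FPKM in wild-type cells, with overlapping groups (log2 fold change -0.28 ± 0.19 against wild-type cells, limma adjusted p = 0.255). Hist1h4d averaged 8.07 ± 3.20 FPKM in leukemias, 8.21 ± 4.72 FPKM in Ebf1+/- cells and 4.12 ± 2.47 FPKM in wild-type cells (0.86 ± 0.36 against wild-type cells, adjusted p = 0.0777). Hist1h3c averaged 6.65 ± 2.79 FPKM in leukemias, 5.75 ± 3.64 FPKM in Ebf1+/- cells and 4.93 ± 0.771 FPKM in wild-type cells (0.27 ± 0.34 against wild-type cells, adjusted p = 0.55). Among the next most abundant genes, Hist1h4c averaged 2.23 ± 0.689 FPKM in leukemias and 3.32 ± 1.52 FPKM in wild-type cells, and Hist1h3e 2.42 ± 1.06 FPKM in leukemias and 2.86 ± 0.827 FPKM in wild-type cells. The H2A genes Hist1h2ag, at 5.77 ± 3.08 FPKM in leukemias and 6.21 ± 2.69 FPKM in wild-type cells, and Hist1h2ae, at 2.84 ± 1.23 FPKM in leukemias and 3.04 ± 1.59 FPKM in wild-type cells, were as close. The adjusted p values of these 4 were 0.234 to 0.884. The absence of a cluster gene called higher depended on single libraries. Without leukemia replicate 1, Hist1h2af, Hist1h3c and Hist1h4d were called higher than in wild-type cells (log2 fold change 1.48, 0.56 and 1.03), and without wild-type replicate 1, Hist1h4d was (1.23). For Hist1h3c the adjusted p ran from 0.0261 to 0.966 over its alternatives, and for Hist1h4d from 0.0276 to 0.273.

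The cluster genes lower in leukemias were compared by how far their annotated transcripts run past the stem-loop, a split made after their values were seen and given no test. Of 17 tested genes with an annotated end at least 100 bases past the stem-loop, 7 were lower than in wild-type cells (41.2%), and of 26 with an end under 100 bases past it, 2 were (7.69%), against 24.1% of all genes. The median log2 fold change was -0.59 for the 17 and -0.40 for the 26. Against Ebf1+/- cells the counts were 5 of 17 (29.4%) and 0 of 27, against 12.3% of all genes. The 17 were also more abundant in wild-type cells, with a median group mean of 3.76 FPKM (1.61 to 54.3) against 2.61 FPKM (1.28 to 6.32), which bears on how readily a gene passes. The cluster genes tested in leukemias against wild-type cells had a median of 14.7 reads per library, and the variant genes 5331.

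Leukemias were then set against Ebf1+/- cells, a comparison that shares the leukemia libraries with the one above. Of 11161 genes tested, 21.6% were called, 9.31% higher (1039 genes) and 12.3% lower (1370 genes) in leukemias. After quantile scaling 1537 were higher and 1139 lower, and the median log2 fold change of all genes was higher by 0.1. Of 45 cluster genes tested none was higher and 5 were lower (11.1%): Hist1h1c, Hist1h2ac, Hist1h2bc, Hist3h2a and Hist3h2ba. Without leukemia replicate 1, Hist1h2af was called higher (log2 fold change 1.43). Of 9 variant genes tested, H2afy was higher and H1f0, H1fx, H2afx and H3f3b were lower. Leukemias lay below Ebf1+/- cells without overlap for 7 cluster and 4 variant genes, against 16.2% of all genes, and above them without overlap for H2afy, against 12.9%. The median log2 fold change was -0.59 for cluster genes, -0.63 for variant genes and -0.02 for all genes tested.

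Ebf1+/- cells were last set against wild-type cells, the comparison of 2 progenitor groups. No gene of 11167 was called by limma (0%, with an unadjusted p under 0.05 for 863), and none by voom on recovered reads (854). These fits were unpaired, although libraries of the same replicate number varied together in the 2 groups. With the replicate number as a block, limma also called 0 genes, and 1800 had an unadjusted p under 0.05. The count was not 0 under every alternative: limma with all groups in 1 fit called 11 genes higher and 12 lower, a pseudocount of 0.1 called 1 higher and 2 lower, median-ratio scaling called 2 lower, and leaving out Ebf1+/- replicate 3 gave 4 higher and 1 lower. No histone gene was called under any of these. Of the 48 cluster and 9 variant genes tested, 1 had an unadjusted p under 0.05, Hist1h2bf, at 1.98 ± 0.906 FPKM in Ebf1+/- cells and 0.724 ± 0.516 FPKM in wild-type cells (log2 fold change 0.80 ± 0.33, adjusted p = 0.636). H2afy, at 492 ± 60.3 FPKM in Ebf1+/- cells and 379 ± 37.6 FPKM in wild-type cells, had a log2 difference of 0.37 ± 0.17 (adjusted p = 0.686). The median log2 fold change was 0.08 for cluster genes, -0.01 for variant genes and 0.03 for all genes tested.

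**Figure D4:**
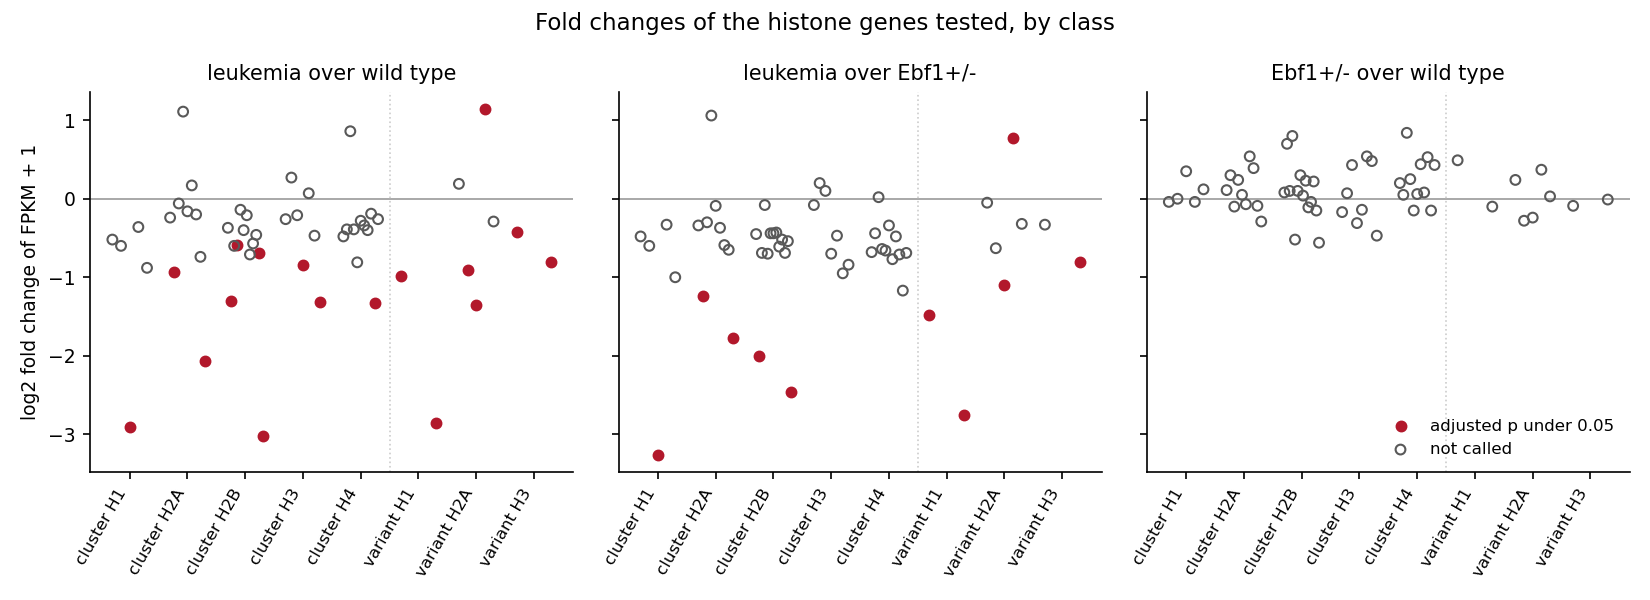
Log2 fold change of FPKM + 1 (vertical axis) of each histone gene tested, by class and histone type (horizontal axis), for leukemia over wild type, leukemia over Ebf1+/- and Ebf1+/- over wild type. Filled red points have a limma adjusted p under 0.05 and open points do not; the lowest filled points are Hist3h2ba (-3.02), Hist1h1c (-2.91) and H1fx (-2.86) against wild type.

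Within the progenitor groups, most cluster genes were highest in the same library. Among the 58 cluster genes above 0 in Ebf1+/- cells, 46 were highest in replicate 1 (79.3%), against 8 of 11 variant genes and 41.4% of all genes. Among the 58 above 0 in wild-type cells, 46 were highest in replicate 1 (79.3%), against 6 of 12 variant genes and 37.8% of all genes. Ebf1+/- replicate 1 had the highest value of all 11 libraries for 38 of 60 cluster genes (17.9% of all genes), and leukemia replicate 1 the lowest for 24 (7.6% of all genes). These shares were given no test. The same Ebf1+/- library held the highest granulocyte marker sum, 10696 FPKM, and also the highest B lineage sum, 4889 FPKM. Wild-type replicate 1 had the highest of both sums among the wild-type libraries, 3427 FPKM for granulocyte and 4166 FPKM for B lineage markers. Ebf1+/- replicate 3 was high for other genes: 157.7 FPKM of Hist1h1c, 54.5 FPKM of Hist1h2bc, 6.36 FPKM of Hist1h2ac and 6.27 FPKM of Hist1h2bn, each the highest of the 11 libraries. That library had a megakaryocyte marker sum of 4388 FPKM, against at most 497 FPKM in the other 10, and the lowest B lineage sum, 1563 FPKM. The part of these other cells in the histone values was not tested. Without that library, Hist1h1c and Hist1h2bc were still called lower in leukemias than in Ebf1+/- cells.

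The genes that make, carry and use histones were read from lists chosen with earlier results of these data known. Of 20 genes for the transcription, 3′ end formation and decay of stem-loop mRNAs, 5 were higher (25%, against 20.7% of all genes) and 4 lower (20%, against 24.1%) in leukemias than in wild-type cells. Slbp stood at 82.0 ± 11.7 FPKM in leukemias, 95.8 ± 15.1 FPKM in Ebf1+/- cells and 97.7 ± 13.2 FPKM in wild-type cells (limma, adjusted p = 0.166 against wild-type cells). Npat, the coactivator of cluster genes in S phase, stood at 8.99 ± 1.03 FPKM in leukemias, 7.77 ± 1.91 FPKM in Ebf1+/- cells and 8.67 ± 1.41 FPKM in wild-type cells (adjusted p = 0.765). Zcchc6, a uridyl transferase that tags RNAs for decay, was lower (16.4 ± 1.30 FPKM in leukemias and 30.5 ± 3.98 FPKM in wild-type cells, adjusted p = 0.00038), as was Upf1, a helicase of mRNA decay (37.9 ± 2.74 FPKM in leukemias and 50.1 ± 1.42 FPKM in wild-type cells, adjusted p = 0.0056). Both were named for having the smallest p values of the list, not for their direction. The median log2 fold change of the 20 was 0.07. Set against Ebf1+/- cells, 1 of the 20 was higher (5%, against 9.31% of all genes) and none lower (0%, against 12.3%).

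Of 27 histone chaperones and related deposition genes, 2 were higher (7.41%, against 20.7% of all genes) and 7 lower (25.9%, against 24.1%) in leukemias than in wild-type cells. Those higher, named after their values were seen, were Ipo4, an importin that carries histones into the nucleus, at 22.4 ± 4.11 FPKM in leukemias and 9.48 ± 3.99 FPKM in wild-type cells (log2 fold change 1.22 ± 0.25, limma adjusted p = 0.00406), and Npm1, nucleophosmin, at 1037 ± 161 FPKM in leukemias and 492 ± 139 FPKM in wild-type cells (1.11 ± 0.20, adjusted p = 0.00239). Asf1a, which hands H3 and H4 to the assembly factors, was at 24.5 ± 2.26 FPKM in leukemias and 39.8 ± 5.98 FPKM in wild-type cells (limma, adjusted p = 0.00175). Anp32e, which takes H2A.Z out of nucleosomes, was at 154 ± 19.3 FPKM in leukemias and 257 ± 28.1 FPKM in wild-type cells (adjusted p = 0.00192), and Cenpa, the H3 variant of centromeres, at 88.5 ± 15.4 FPKM in leukemias and 134 ± 7.89 FPKM in wild-type cells (adjusted p = 0.00889). In the comparison with Ebf1+/- cells 2 of the 27 were higher (7.41%, against 9.31% of all genes) and 2 lower (7.41%, against 12.3%).

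Genes of the cell cycle phases were set beside them, since cluster mRNAs peak in S phase. Of 28 DNA replication genes, 3 were higher (10.7%, against 20.7% of all genes) and 1 lower (3.57%, against 24.1%) in leukemias than in wild-type cells, with a median log2 fold change of 0.18. Prim1, the DNA primase subunit, was at 65.3 ± 3.96 FPKM in leukemias and 41.5 ± 7.01 FPKM in wild-type cells (limma, adjusted p = 0.00183), and Tyms, thymidylate synthase, at 31.2 ± 4.06 FPKM in leukemias and 17.6 ± 3.21 FPKM in wild-type cells (adjusted p = 0.00216). The 1 gene lower, named after its values were seen, was Rrm2. It was at 124 ± 40.1 FPKM in leukemias and 240 ± 42.2 FPKM in wild-type cells. The log2 fold change of Rrm2 was -1.0 ± 0.27 (limma, adjusted p = 0.0154). Of 21 mitosis genes none was higher and 19 were lower (90.5%, against 24.1% of all genes), with a median of -0.71. Ube2c, a ubiquitin carrier of mitotic exit, was at 126 ± 13.6 FPKM in leukemias and 272 ± 35.7 FPKM in wild-type cells (adjusted p = 0.000203), and Cenpf, a kinetochore protein, at 16.6 ± 1.48 FPKM in leukemias and 32.8 ± 4.82 FPKM in wild-type cells (adjusted p = 0.000365). Against Ebf1+/- cells, 1 replication gene was higher (3.57%, against 9.31% of all genes) and none lower. Of the mitosis genes 12 were lower there (57.1%, against 12.3% of all genes) and none higher. The replication gene was Prim1 (adjusted p = 0.0499), a call lost under 10 of 16 alternatives, among them leaving out any 1 leukemia or Ebf1+/- replicate 2 or 3 (0.0159 to 0.193 over its alternatives). The part of the cell cycle in the histone values was not tested.

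Markers of other cells differed between leukemias and progenitors as well. Of the markers tested against wild-type cells, 13 of 13 granulocyte, 8 of 8 megakaryocyte, 6 of 7 erythroid and 2 of 4 monocyte genes were lower in leukemias and none was higher. Of all genes, 24.1% were lower and 20.7% higher. Erythroid markers summed to 57.0 to 148 FPKM in leukemias, 496 to 1186 FPKM in Ebf1+/- cells and 227 to 1252 FPKM in wild-type cells, with 3 of the 10, the globin genes Hba-a1, Hbb-bt and Hbb-bs, listed at 0 in every library and Car1 at 0 in every leukemia. Monocyte markers summed to 57.9 to 156 FPKM in leukemias, 406 to 1729 FPKM in Ebf1+/- cells and 332 to 557 FPKM in wild-type cells. T cell markers summed to 55.6 to 109 FPKM in leukemias, 31.1 to 48.0 FPKM in Ebf1+/- cells and 25.4 to 33.9 FPKM in wild-type cells. The higher leukemia sum was mostly 1 gene, Lck, at 71.1 ± 21.4 FPKM in leukemias, 20.2 ± 4.7 FPKM in Ebf1+/- cells and 15.3 ± 3.27 FPKM in wild-type cells. Lck was the 1 of 5 called higher than in wild-type cells (20%, against 20.7% of all genes). Lck and the genes named after it here were chosen after their values were seen. Cd3d, Cd3e, Cd3g and Cd4 had negative log2 fold changes against wild-type cells, -0.49 to -1.25, none of them called, and Cd3e and Cd3g were called lower than in Ebf1+/- cells (-1.18 and -1.25, limma adjusted p = 0.043 and 0.0318). RNAs that carry no poly(A) tail, 4 of 14 listed, summed to 313 to 620 FPKM in leukemias, 350 to 515 FPKM in Ebf1+/- cells and 303 to 397 FPKM in wild-type cells, overlapping ranges made up almost wholly by Rn45s, the ribosomal RNA precursor, which was not called (adjusted p = 0.526 against wild-type cells). Rpph1, the RNA of RNase P, was called higher in leukemias than in wild-type cells (12.2 ± 6.16 FPKM in leukemias and 4.36 ± 3.22 FPKM in wild-type cells, limma adjusted p = 0.0406), and none of the 3 tested was called against Ebf1+/- cells. The part of these in the histone values was not tested.

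Close copies limit what single cluster genes show. Over the 60 cluster genes, the median share of coding 50-base stretches found in no other annotated gene was 27.2%, and 46 genes were below 50%. For 12 variant genes the median was 87.9%. The share was 2.43% for Hist1h2bc, 78.0% for Hist1h1c, 62.0% for Hist3h2ba, 100% for Hist2h2be and 93.8% for Hist2h4. Counting by strand is not given in the sources used here, so reads of overlapping and antisense genes could not be told apart either.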

How the data were processed

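The deposited table holds FPKM values, which the authors made from reads aligned with BWA 0.7.12 (wild type and leukemia) or TopHat2 with Cufflinks (Ebf1+/-) to mm10 (GRCm38), per the submitters' processing notes. Counter, annotation, strand and RNA selection: not given in the sources used here. Whole reads within 0.001 read were recovered for 100% of 17380 genes above 0. Reads carry no molecular identifiers.

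Members were taken by symbol. The members and the 11 gene lists were chosen with earlier results of these data known. Tests used limma 3.58.1 (R 4.3.3; moderated with a mean trend; two-sided) on log2(FPKM + 1) of the libraries of both groups compared, for genes averaging 1 FPKM or more there. Benjamini-Hochberg adjustment ran over all genes tested. The fit was tested on simulated data. Leukemia samples are single mice and progenitor samples are pools. Deviations from group means correlated at 0.65, 0.322 and 0.693 between Ebf1+/- and wild-type libraries of the same replicate number. The numbers mark no stated shared batch, so the fit reported was unpaired and the replicate block was an alternative. The block gave 0 calls there too (1800 unadjusted p under 0.05). Leukemia numbers gave correlations of -0.134 to 0.0734 and pair nothing.

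Genes named with values were every variant gene tested against wild type, the 3 most abundant cluster genes of each histone type, the 5 highest and 5 lowest called members per comparison, the 2 smallest p values in each of 4 lists with Slbp, Npat and Cenpa, and Pax5 and Ebf1. Stem-loops and the intergenic interval came from the RefSeq GRCm38.p6 genome, gene positions from GENCODE M21 and promoters from RefSeq (55 cluster and 11 variant genes matched). Alternatives were another pseudocount (0.1), no filter or a filter at 5 FPKM, quantile and median-ratio scaling, 1 fit of all groups, the replicate block, leaving out each replicate, H2afx counted with the cluster genes and, chosen after seeing the data, voom on recovered reads and sums without Hist1h1c and Hist1h2bc. Python 3.11.15, NumPy 2.4.6, pandas 2.3.3, SciPy 1.17.1 and Matplotlib 3.10.9 were used.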

Additional observations from a re-analysis of the deposited data

Results flagged for a closer look

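The cluster histone sum of leukemia replicate 1, 103 FPKM, stood apart from the other 4 leukemias, at 160 to 176 FPKM. Its gap to the nearest of them was 0.779 of the group's range, above the Dixon critical value of 0.71 for 5 samples. Chance passes that limit in about 1 in 20 groups. In the leukemias 27 values were checked for such gaps, so a pass among them can arise by chance. This library was also the shallowest, at 8.51 in units of 1e6 reads, and its variant sum, 3036 FPKM, lay within the range of the other leukemias (2871 to 3051 FPKM).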

How the results depend on the processing

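No fold change of a gene named by the rule changed sign in a comparison where any fit called it. Against wild-type cells, cluster genes called higher, 0 in the fit reported, numbered 1 with no filter on low values (Hist1h2ah) and 0 to 3 when 1 library was left out, and cluster genes called lower numbered 10 in the fit reported, 5 with a filter at 5 FPKM, and 7 to 14 when 1 library was left out. Variant genes called higher numbered 2 after quantile scaling (H2afj and H2afy). Against Ebf1+/- cells, cluster genes called higher numbered 0 to 1 when 1 library was left out, and under the replicate block variant genes called higher numbered 0 and called lower 1, but leukemia and progenitor samples share only a number. Over all genes in that comparison, the block called 350 higher and 594 lower, against 1039 and 1370 in the fit reported, and leaving out Ebf1+/- replicate 3 gave 690 and 1007. Of the histone counts, the block changed no other by more than 1.5 times. Summed variant FPKM after quantile scaling was 2785 in leukemias and 4413 in wild-type cells. With H2afx counted among the cluster genes, the mean cluster sum was 357 FPKM in leukemias, 810 FPKM in Ebf1+/- cells and 825 FPKM in wild-type cells, the leukemia variant sum was 2778 FPKM, and the ratio of sums was 0.129 in leukemias, 0.256 in Ebf1+/- cells and 0.264 in wild-type cells. The order of Ebf1+/- and wild-type cells was thus turned round in this untested cluster sum and ratio. Without Hist1h1c and Hist1h2bc, the mean cluster sum was 144 FPKM in leukemias, 259 FPKM in Ebf1+/- cells and 254 FPKM in wild-type cells. The ratio of sums was then 0.0485 in leukemias, 0.0696 in Ebf1+/- cells and 0.0688 in wild-type cells. The variant sum of the fit reported was close, 3657 FPKM in Ebf1+/- and 3622 FPKM in wild-type cells. Its order was turned round after quantile scaling (3678 FPKM in Ebf1+/- cells) and after median-ratio scaling (3553 and 3573 FPKM). It was also turned round without Ebf1+/- replicate 1 (3077 FPKM in Ebf1+/- cells) or wild-type replicate 3 (3916 FPKM in wild-type cells). The ratio was turned round without Ebf1+/- replicate 3 (0.081 in Ebf1+/- cells, against 0.0857 in wild-type cells). Leukemia means were the lowest in each of these sums and ratios. The causes were not tested. Single-gene results were counted once per alternative, over the 49 comparisons of named genes that any fit called. The 62 such comparisons never called were left out. Of the results counted, 717 kept their side of the threshold, 49 lost a call and 16 gained one. voom on recovered reads called 2087 genes higher and 2663 lower in leukemias against wild-type cells, and 904 higher and 1263 lower in leukemias against Ebf1+/- cells. Most cluster genes rest on few reads, with a median of 14.7 per library against wild-type cells, which limits the precision of their values.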
